A study of Mus musculus with 8 samples.

Results

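The Myc and Pvt1 locus of mouse chromosome 15 comprised 10 of the 34798 gene entries and lincRNA regions of a whole-genome Agilent microarray, read by 43 of its 55681 different probes. LincRNA regions (long intergenic noncoding RNA) were counted once per strand. A probe was a member if its spots were named Myc (1 probe) or Pvt1 (3 probes) on the array, or if it was a lincRNA probe whose named region overlaps chr15:61800000-62150000 of the mouse build mm9 (39 probes). The 39 lincRNA probes belong to 8 combinations of region and strand, 24 of them to the forward strand, on which Myc and Pvt1 lie, and 15 to the reverse strand. The locus itself was chosen by its measured signals: the log2 differences of these probes between the groups described next were already known, so they are given as a description, without a test.

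Thyroids came from female Balb/c mice aged 8 weeks and were hybridized 1 per array. The 4 exposed mice (Tc) had received 99mTcO4-, the pertechnetate ion of the Auger electron emitter technetium-99m, with an absorbed dose of 30 Gy to the thyroid, and their RNA was taken 24 hours after administration. The 4 control mice (Ct) are untreated in the main text of the study, while a legend gives saline. The comparison asks which transcripts differ in the thyroid when its iodide uptake is stunned. Exposed thyroids are called S539, S588, S589 and S590 below, and controls 1 to 4.

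Myc is a transcription factor that binds DNA as a pair with Max and raises genes of ribosome production, nucleotide synthesis and cell growth, and the Mxd proteins and Mnt compete with it for Max. Pvt1 is a long noncoding RNA gene downstream of Myc on the same strand, long known as a site of retroviral insertion and of plasmacytoma translocations. A p53-responsive form of Pvt1 has been described in mouse cells, and p53 is activated by DNA breaks.

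Selected probes of this locus are shown 5′ to 3′ as printed on the array, with positions in mm9. Capitals mark AATAAA, the usual polyadenylation signal. The Myc probe (chr15:61821417-61821476, forward strand) was the only probe named Myc:
A_52_P108346: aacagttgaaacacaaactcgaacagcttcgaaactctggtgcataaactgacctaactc
The Pvt1 probes at chr15:62081020-62081079 and chr15:62082471-62082530 were both designed on the RefSeq transcript NR_003368:
A_55_P2051254: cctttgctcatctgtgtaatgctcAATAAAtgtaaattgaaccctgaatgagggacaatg
A_55_P2155654: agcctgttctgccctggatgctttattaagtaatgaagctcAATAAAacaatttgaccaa
A pair of lincRNA probes, chr15:62082351-62082410 and chr15:62082411-62082470, join without a gap onto the start of the second Pvt1 probe:
A_30_P01031483: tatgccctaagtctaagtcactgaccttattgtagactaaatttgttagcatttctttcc
A_30_P01027654: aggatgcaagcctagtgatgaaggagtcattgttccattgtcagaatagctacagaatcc
The forward lincRNA probe with the largest difference of the locus lies at chr15:62086046-62086105:
A_30_P01029551: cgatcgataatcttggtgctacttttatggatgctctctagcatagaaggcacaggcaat
The last pair are exact reverse complements, so they read opposite strands of 1 sequence, and the array design gives them no position within their region chr15:61919018-61935580:
A_30_P01021758 (forward): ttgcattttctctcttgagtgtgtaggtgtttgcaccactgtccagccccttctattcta
A_30_P01027788 (reverse): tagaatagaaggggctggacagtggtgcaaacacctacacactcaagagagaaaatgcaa
AATAAA in the printed orientation was found in 4 of the 43 locus probes (9.30%) and in 5602 of all 55681 probes (10.1%, or 13.5% when both strands are searched). The fourth probe with it is the reverse-strand A_30_P01020018, and A_30_P01029562 is identical in sequence to the Pvt1 probe A_55_P2155654.

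Signals are log2 values of the background-subtracted intensity after quantile normalization between arrays, and differences are exposed minus control on that scale. A spot is well above background when the scanner software called it so. A probe's level is compared between groups, and never with the level of another probe. Across the locus 40 of 43 probes were higher in the exposed mean and 3 were lower. At 22 probes the lowest exposed array exceeded the highest control array, and at 1, the Myc probe, the highest exposed array stayed under the lowest control. Over all probes of the array, 4.74% were apart in the upward and 4.37% in the downward direction, and by limma's moderated test 0.781% had an adjusted p below the threshold of 0.05. Because this contrast chose the locus, nothing is read from the distance between these shares. The median difference was 0.97 at the locus, 0.01 over all probes and 0.07 over all 16251 lincRNA probes. Spots of 17 of the 43 were called well above background on 8 of 8 arrays, and spots of 8 on no control array. Each of the 43 was well above background on at least 1 array.

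On the arrays as a whole, between 60.5% and 77.3% of spots were well above background, and no spot was saturated. The 14 markers of thyroid follicular cells were each well above background on at least 1 array. Their summed linear signal was 520240 to 652243 in controls and 487445 to 631209 in exposed thyroids. The brightest of them, Tg, differed by 0.04. Of the 14, 12 had a lower exposed mean (median -0.32), and 3 were lower at an unadjusted p below 0.05. The deiodinase Dio1 was the 1 called lower (limma, adjusted p = 0.0153). The summed signal of 14 T cell and thymocyte markers was 92608 in control 1 and 49986 in control 2, against 11980 and 11201 in controls 3 and 4 and 10402 to 17284 in the exposed thyroids. None of the 14 was called, and 12 had a lower exposed mean. Results that may rest on controls 1 and 2 are therefore also given without them. Summed skeletal muscle markers spanned 1109711 to 2229309 in controls and 564190 to 1813669 in exposed thyroids. In whole thyroids, fewer cells of a type and less RNA per cell cannot be told apart.

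Myc was lower in the exposed thyroids. Its probe read 8.53, 9.34, 9.16 and 8.96 in controls 1 to 4, and 7.75, 7.63, 8.05 and 8.41 in S539, S588, S589 and S590. The groups did not overlap, but the highest exposed array and the lowest control array were only 0.12 apart. The means were 8.998 ± 0.35 in controls and 7.96 ± 0.34 in exposed thyroids (SD, n = 4 each), a difference of -1.04, so that the control level was 2.05-fold the exposed level. The probe was spotted at 2 places on each array. The spots of 1 array differed from each other by at most 0.66, and this largest gap was in control 1, the lowest control.

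The difference of Myc was as large without the controls of high T cell marker signal. On leaving out controls 1 and 2 it was -1.11, and the groups stayed apart. Macrophage markers moved in the same direction as Myc: their summed signal was 18951 to 25782 in controls and 14174 to 17740 in exposed thyroids, 8 of 9 had a lower exposed mean, and the chemokine receptor Cx3cr1 was the one called (limma, difference -2.43, adjusted p = 0.00714). Fibroblast markers did so as well, with 197623 to 218245 in controls against 128990 to 170931, and all 7 means lower with 0 called (2 at an unadjusted p below 0.05). Both sets of sums were free of overlap. Skeletal muscle markers, whose sums overlapped, had a lower exposed mean at 9 of 9, with a median of -0.94 and 0 called (0 at an unadjusted p below 0.05). Markers of thyroid follicular cells, whose sums also overlapped, had a lower exposed mean at 12 of 14, with a median of -0.32 and 1 called. The part of these cell types in the Myc difference was not tested.

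Pvt1 was higher at both probes of the RefSeq transcript, and by unequal amounts. The downstream of these, A_55_P2155654, read 8.58, 8.17, 8.33 and 8.41 in controls 1 to 4 and 9.40, 9.21, 9.37 and 9.26 in S539, S588, S589 and S590. Its difference was 0.94, or 1.91-fold, from 8.37 ± 0.17 to 9.31 ± 0.09 (SD, n = 4 each). The groups lay 0.63 apart, several times the SD of either. A second copy of the same sequence among the lincRNA probes, A_30_P01029562, gave 1.12. The upstream probe A_55_P2051254 read 6.59, 7.36, 7.33 and 8.13 in controls and 10.40, 9.68, 10.24 and 10.11 in exposed thyroids. Here the difference was 2.75, or 6.74-fold, from 7.35 ± 0.63 to 10.11 ± 0.31. All 8 values of both probes were well above background.

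The Pvt1 probe designed on the cDNA AK144873, A_55_P2004381 at chr15:62007459-62007518, showed no such separation. It read 4.37, 4.30, 5.55 and 6.28 in controls and 5.81, 5.69, 5.17 and 4.27 in exposed thyroids. The groups overlapped fully, with a difference of 0.11, and the probe was well above background on only 2 control and 3 exposed arrays. Without controls 1 and 2 its difference was -0.67, with the groups still overlapping.

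**Figure D1:**
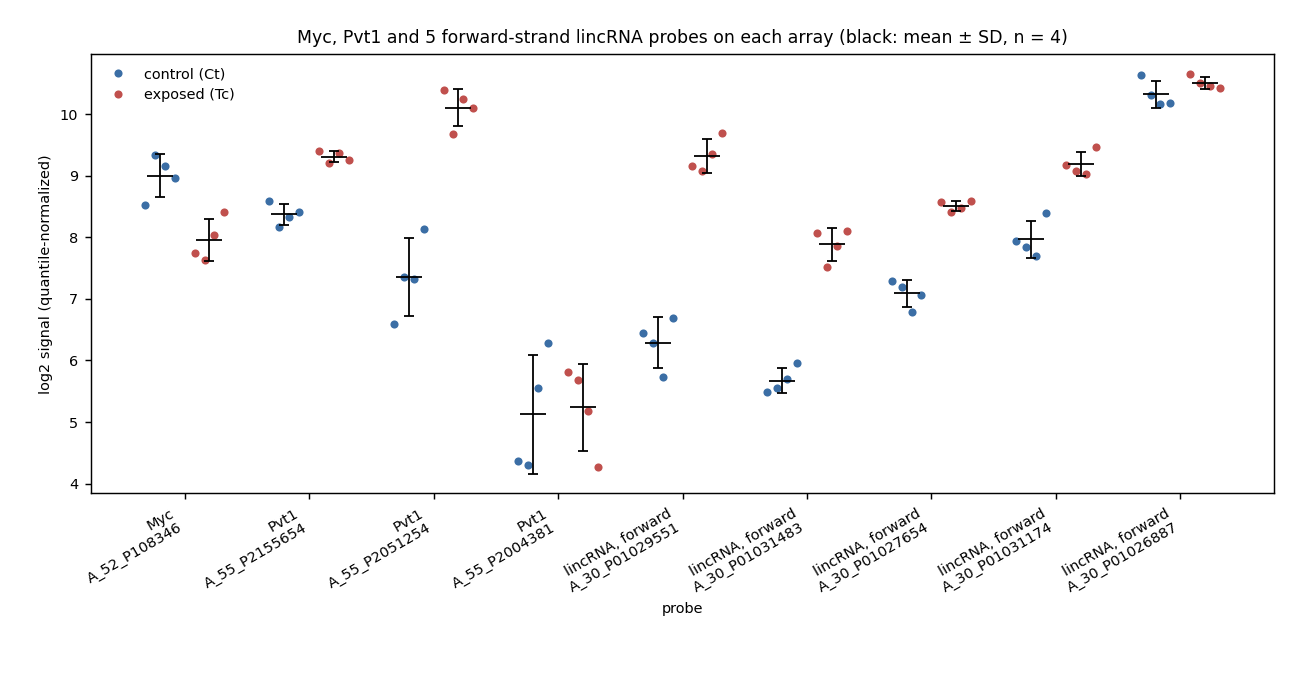
Quantile-normalized log2 signal of the Myc probe, the 3 Pvt1 probes and 5 forward-strand lincRNA probes, with 1 point per array (blue control, red exposed) and black marks for mean ± SD (n = 4). Exposed points lie below control points for Myc, above them for 2 of the 3 Pvt1 probes and 4 of the 5 lincRNA probes, and overlap with them for A_55_P2004381 and A_30_P01026887.

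The forward-strand lincRNA probes around the last part of Pvt1 rose with it. The probe A_30_P01029551, of the region chr15:61984389-62102500, read 6.45, 6.29, 5.73 and 6.69 in controls 1 to 4 and 9.15, 9.08, 9.35 and 9.69 in S539, S588, S589 and S590. This was the largest difference of the locus, 3.03 or 8.15-fold, and the groups were 2.39 apart. With normexp background correction the difference was 2.29. The probes A_30_P01031483 and A_30_P01027654, which run into the Pvt1 probe A_55_P2155654, differed by 2.21 and 1.42, against 1.12 for the third lincRNA probe of that run. A_30_P01031483 read 5.48 to 5.95 in controls and 7.52 to 8.11 in exposed thyroids, and A_30_P01027654 read 6.80 to 7.30 and 8.41 to 8.59. Along this stretch the difference on the log2 scale became smaller toward the 3′ end, and with normexp background correction it was 1.40, 1.13 and 1.02 in the same order. The part of background correction in this order was not tested further.

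Farther downstream, the 3 probes of the region chr15:62090565-62091770 passed background on all 8 arrays, and each had its groups apart. A_30_P01027182 read 6.80 to 7.82 in controls and 8.12 to 8.62 in exposed thyroids (difference 0.97). A_30_P01021592 read 6.31 to 7.16 and 7.42 to 8.01 (1.05), and A_30_P01031174 read 7.69 to 8.39 and 9.03 to 9.47 (1.22). They lie in 1 region of 1206 bases and are not 3 separate observations.

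Forward probes with a small difference lay between and beyond them, also well above background on all 8 arrays. A_30_P01026887, at chr15:62091014-62091073, read 10.63, 10.32, 10.17 and 10.18 in controls and 10.65, 10.51, 10.46 and 10.42 in exposed thyroids, a difference of 0.19 with overlap. A_30_P01027502, the probe farthest from Myc, read 7.96 to 8.76 in controls and 8.21 to 8.64 in exposed thyroids (0.17, overlap). Without controls 1 and 2 these differences were 0.34 and 0.45, and the groups of both were apart. Both probes bear the name of the region chr15:61984389-62102500, to which A_30_P01029551 with its difference of 3.03 is also assigned. All 7 forward probes of that region had a higher exposed mean, and 3 had their groups apart. One of the others, A_30_P01025687, read 5.42, 5.58 and 5.73 in controls 1, 2 and 4 but 8.12 in control 3, which was above the exposed values of 7.58 to 8.02. The 3 forward probes of chr15:62007025-62090191 all had a higher exposed mean, but none was well above background on more than 1 control array. A_30_P01028541, well above background on 1 control and 4 exposed arrays, read 4.98 to 5.66 in controls and 6.04 to 6.69 in exposed thyroids.

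Near the start of the Pvt1 side, about 49.4 kb downstream of the Myc probe, the 3 forward probes of chr15:61870759-61938796 also read higher in the exposed thyroids. A_30_P01031088 was well above background on all 8 arrays, with 5.48 to 7.23 in controls and 6.56 to 7.85 in exposed thyroids, a difference of 1.00 in which control 1 overlapped the exposed group. The other probes were well above background on no control array and on all 4 exposed arrays. Their fold was therefore taken after raising lower control values to the dimmest signal that counted as well above background on that array. So computed, A_30_P01026168 was 2.08-fold and A_30_P01023245 1.05-fold higher. These folds are not strict lower bounds, because spots brighter than that signal can also miss the call. Under the alternative settings the log2 differences of A_30_P01026168 and A_30_P01023245, both 2.17, went down to 0.84 and 0.51. The groups of both were apart.

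The strands differed in a stretch that starts 97.6 kb from the Myc probe. All 5 forward probes of chr15:61919018-61935580 overlapped between the groups, with differences of -0.02 to 0.58. Of the 5 reverse probes of the same region, 3 had their groups apart upward. A_30_P01028281, with no position on mm9 in the array design, read 5.63 to 6.05 in controls and 7.29 to 7.50 in exposed thyroids (difference 1.55), and A_30_P01023290 read 5.47 to 5.56 and 6.16 to 6.63 (0.93). The reverse complements shown above compare the strands over the same bases. The forward A_30_P01021758 read 6.69, 6.40, 6.72 and 6.75 in controls and 6.77, 6.29, 6.68 and 6.75 in exposed thyroids, a difference of -0.02. The reverse A_30_P01027788 read 6.76, 6.50, 6.22 and 7.03 against 7.75, 8.39, 7.07 and 7.71, a difference of 1.10, with the groups apart by 0.03. Both were well above background on all 8 arrays. In the remaining pairs of overlapping probes on opposite strands, most spots were not well above background. A_30_P01018312 and A_30_P01029184 share 51 bases and were well above background on 1 and 4 of the 8 arrays, and A_30_P01030674 and A_30_P01033387 share 43 and were so on 8 and 1. The sign of A_30_P01033387 rested on control 3, with a difference of -0.31 over all arrays and 0.72 without that control.

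The 10 reverse probes of chr15:61984389-62102500 all had a higher exposed mean, and 4 had their groups apart, of which 2 were well above background on no control array. A_30_P01020638, beside the Pvt1 probe of AK144873 but on the other strand, read 6.31, 6.14, 5.12 and 5.75 in controls and 7.27, 8.08, 6.99 and 7.37 in exposed thyroids (difference 1.60). A_30_P01030589 was well above background on no control array and on 4 exposed arrays. With lower control values raised as above it was 2.12-fold higher, again not a strict bound. Its log2 difference of 2.58 went down to 0.98 under the alternative settings. The probe A_30_P01020018, next to it, read 6.10 to 6.18 in controls 2 to 4 and 7.51 in control 1, which overlapped the lowest exposed value of 7.50. A_30_P01019658 and A_30_P01021541, the 2 with every array well above background, differed by 0.21 and 0.17, and each overlapped.

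By strand, 13 of the 24 forward and 7 of the 15 reverse lincRNA probes had their groups apart upward, with median differences of 1.07 and 0.85. Over all lincRNA probes of the array 3.99% were apart upward. Among the 14 locus lincRNA probes that passed background on 8 of 8 arrays, 13 were higher and 7 were apart. Of the 5997 lincRNA probes of the whole array that passed it on all arrays, 63.0% were higher and 6.14% were apart upward. Probes of 1 region share a source and are not independent.

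**Figure D2:**
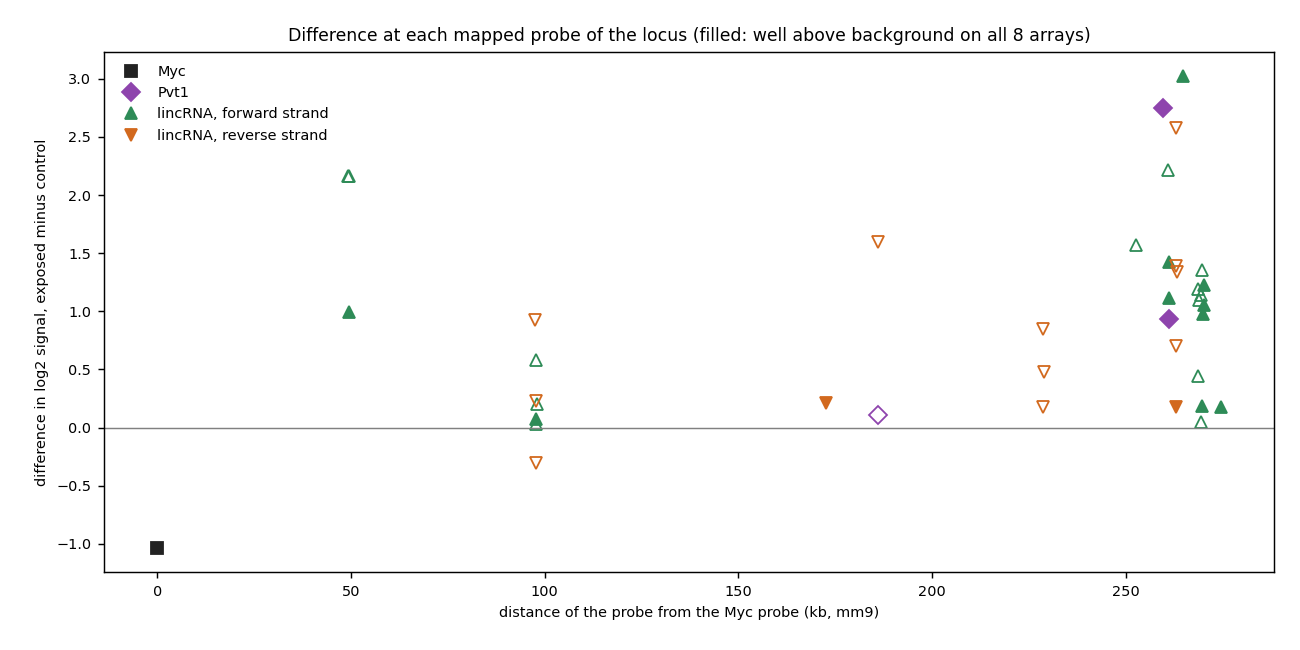
Difference in log2 signal (exposed minus control mean, n = 4 each) of the 40 locus probes with a position, against distance from the Myc probe in kb. Squares are Myc, diamonds Pvt1, upward triangles forward and downward triangles reverse lincRNA probes, filled where the probe was well above background on all 8 arrays. Myc stands at -1.04 and the highest symbol, at 264.6 kb, at 3.03, with filled symbols near 0.2 among those above 0.9. The farthest probe, at 274.5 kb, stands at 0.17.

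The rule left out 3 further array probes that lie within the interval. A_55_P2164694 (chr15:61939168-61939227, forward, no gene name) read 6.31, 6.63, 8.47 and 6.33 in controls and 9.01, 8.67, 8.50 and 8.75 in exposed thyroids, a difference of 1.80 with control 3 next to the exposed arrays. A_55_P2179706 (chr15:62042993-62043052, reverse, no gene name) read 4.92 to 5.10 in controls and 6.82 to 7.35 in exposed thyroids, and was well above background on only 1 of the controls but on all 4 exposed arrays. H2afy3, a macroH2A-like gene inside the Pvt1 stretch on the reverse strand, read 9.75 to 10.30 and 10.09 to 10.51, with overlap (limma, difference 0.22, SE 0.17, adjusted p = 0.628). Its probe lies 227.7 kb from the Myc probe. The reverse lincRNA probes A_30_P01017939, A_30_P01026374 and A_30_P01030270 start at 228.6, 228.7 and 228.8 kb on the same strand. Whether they read H2afy3 was not tested, and A_30_P01026374 (difference 0.85) had its groups apart.

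Genes on either side of the locus did not pass the test. Of 18 named genes with a probe inside the interval or within 2 Mb of it, 0 were called by limma, while 1 was higher and 2 were lower at an unadjusted p below 0.05, and none had its groups apart. Over the 30174 genes tested, 0.968% were called (0.736% higher and 0.232% lower) and 13.3% had an unadjusted p below 0.05. The nearest measured gene on the Myc side, D030024E09Rik, differed by 0.66 (SE 0.26, limma adjusted p = 0.376), and was well above background on 1 control and 4 exposed arrays. Its difference was 0.13 to 1.09 across the alternative settings. The nearest beyond Pvt1, LOC432958, lies 1455 kb from the Myc probe. It differed by -0.11 (SE 0.26, limma adjusted p = 0.889), a sign that turned when each array was scaled to its 75th percentile (0.21). The median over the neighbors was 0.18 under quantile normalization and 0.45 under that scaling, which itself moved the median of all probes from 0.01 to 0.16.

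The partners and competitors of Myc showed no called change. Of 13 factors of the Myc, Max and Mlx network, 0 were called by limma, and 2 were higher and 0 lower at an unadjusted p below 0.05, beside a share of 6.46% and 6.84% over all genes. The median difference was 0.08, against -0.01 over all genes. Mxd4, which competes with Myc for Max, read 10.79 to 11.29 in controls and 11.51 to 12.03 in exposed thyroids, without overlap (difference 0.64, SE 0.18, adjusted p = 0.203). Mycn, the close relative of Myc, read 8.30 to 9.46 and 7.08 to 9.22 (-0.80, SE 0.45, adjusted p = 0.513), and Mxd1 differed by 0.38 (SE 0.24, adjusted p = 0.55). The second factor under the unadjusted threshold was Mycl1 (1.27, adjusted p = 0.33), well above background on no control array and named after its value was seen. Max itself read 12.72 to 13.37 in controls and 12.84 to 13.47 in exposed thyroids (-0.08, adjusted p = 0.903).

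**Figure D3:**
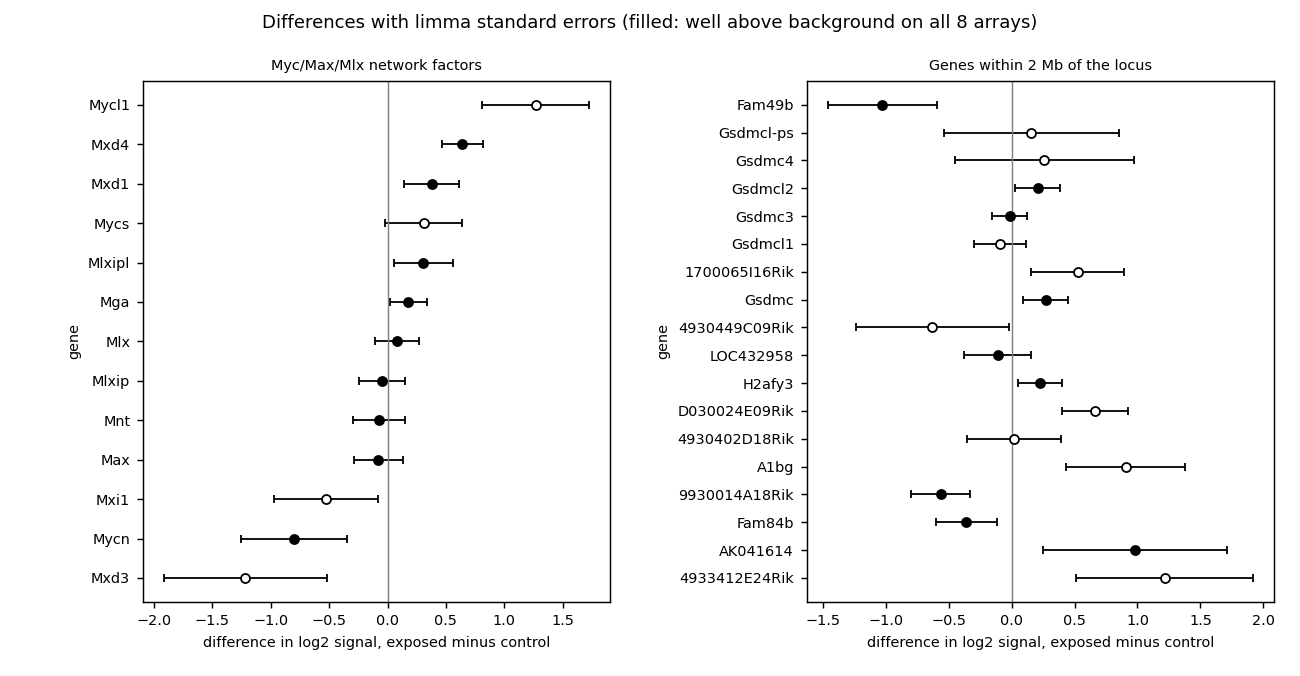
Difference in log2 signal (exposed minus control, n = 4 each) with its limma standard error for the 13 Myc, Max and Mlx network factors, and for 18 named genes inside the interval or within 2 Mb of it, from the Fam49b side (top) to the side before Myc (bottom). Filled symbols were well above background on all 8 arrays, and no gene shown had an adjusted p below 0.05.

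Cofactors of Myc and proteins that govern its stability (28 genes) held 0 called genes, with 0 higher and 2 lower at an unadjusted p below 0.05, and a median of -0.12. Aurka, a mitotic kinase that stabilizes Myc family proteins, differed by -1.71 (SE 0.52, limma adjusted p = 0.244), with 8.18 to 10.34 in controls and 7.27 to 8.76 in exposed thyroids, and by -1.11 without controls 1 and 2. Hcfc1, a chromatin cofactor, had its groups apart, as 5.23% of all genes did in that direction (-0.40, SE 0.13, adjusted p = 0.273), and the ubiquitin ligase subunit Fbxo32 differed by -0.69 (SE 0.52, adjusted p = 0.613).

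Among 29 regulators of Myc transcription and mRNA, 0 were called, and 2 were higher and 2 lower at an unadjusted p below 0.05 (median -0.12). The largest differences were those of Tcf7 and Lef1, the Wnt-responsive DNA-binding factors that are also abundant in T cells, at -2.40 (SE 1.19, limma adjusted p = 0.462) and -1.95 (SE 0.91, adjusted p = 0.442). Tcf7 read 12.11 and 11.11 in controls 1 and 2 but 7.27 and 6.97 in controls 3 and 4, against 6.54 to 7.91 in exposed thyroids. Without controls 1 and 2 its difference was -0.15 and that of Lef1 was -0.22. The part of T cells in the differences of Tcf7 and Lef1 was not tested. Zfp36, which promotes decay of AU-rich mRNAs, differed by 0.95 (SE 0.39, adjusted p = 0.394).

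Genes known to be activated by Myc showed no called change, and no common direction. Of 49 measured, 0 were called by limma, 3 were higher and 5 lower at an unadjusted p below 0.05, and 21 had a higher and 28 a lower exposed mean (median -0.04). The folate carrier Slc19a1 read 10.73 to 11.35 in controls and 9.93 to 10.55 in exposed thyroids (-0.76, SE 0.21, adjusted p = 0.206). The nucleotide synthesis enzyme Prps2 moved the other way, from 8.32 to 9.07 in controls to 9.35 to 9.60 in exposed thyroids (0.73, SE 0.21, adjusted p = 0.213). Neither overlapped. E2f2, a cell cycle factor, differed by -1.61 (SE 0.78, adjusted p = 0.455), and by -0.13 without controls 1 and 2.

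Of 22 genes known to be repressed by Myc, 1 was called. Cdkn1a, the cyclin-dependent kinase inhibitor p21 and also a direct p53 target, read 11.54, 10.88, 10.80 and 11.64 in controls and 15.76, 14.89, 14.70 and 14.84 in exposed thyroids. Its difference was 3.83 (SE 0.30, limma adjusted p = 0.0032), higher in 4 of 4 exposed thyroids. Without controls 1 and 2 the difference was 3.82, with an adjusted p of 0.0518 on 6 arrays, and under the other alternatives the adjusted p was 0.000345 to 0.0204. Of the rest of the list, 3 were higher and 3 lower at an unadjusted p below 0.05, and the list's median was 0.09.

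Proliferation genes were lower in mean at 18 of 20, with a median of -1.27. None was called by limma, beside 0.968% of all genes. With an unadjusted p below 0.05, 0 were higher and 7 lower, beside 6.46% and 6.84% of all genes. Mki67, a marker of cycling cells, read 11.89 and 11.66 in controls 1 and 2, 8.51 and 7.90 in controls 3 and 4, and 6.87 to 8.91 in exposed thyroids (-2.34, SE 0.99, adjusted p = 0.404). Birc5 and Ccna2, which act in mitosis and the S phase, differed by -2.11 (SE 0.99, adjusted p = 0.444) and -1.78 (SE 0.72, adjusted p = 0.381) with the same split among controls. Without controls 1 and 2 the list's median was -0.19 and 11 of its 20 genes were lower. The T cell marker sums given above divide the controls the same way, while the Myc probe itself did not. The part of T cells in the differences of the proliferation genes and of Myc was not tested.

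Long noncoding RNAs with established names served as a comparison for Pvt1. Of 20 measured, 1 was called higher by limma and 0 lower. At an unadjusted p below 0.05, 8 were higher and 0 lower, beside 6.46% and 6.84% of all genes. Without overlap 8 were higher, beside 5.29% of all genes. The median was 0.34. Snhg12, a host transcript of small nucleolar RNAs, read 11.16, 11.32, 11.42 and 11.11 in controls and 12.30, 12.13, 12.21 and 12.17 in exposed thyroids. Its difference was 0.95 (SE 0.13, adjusted p = 0.0233), but the call was lost on leaving out control 2, control 4 or any 1 of the exposed arrays, with an adjusted p of 0.0572 to 0.0885 and a difference of 0.91 to 0.98. It was 0.143 without controls 1 and 2, and 0.00154 to 0.0493 under the remaining alternatives. A further host transcript, Gas5, named after its value was seen, read 11.27 to 11.62 and 11.99 to 12.17 (0.66, SE 0.13, adjusted p = 0.0828).

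The genes whose profile over the 8 arrays lay nearest to the Pvt1 probe A_55_P2155654 were Cpped1, Ccdc163, Coq10b, Atp6v1d and Ltc4s. The measure was the root mean square difference between log2 values centered on each probe's own mean, and it was 0.0906, 0.096, 0.109, 0.117 and 0.124 in that order, against a median of 0.561 over 13766 genes. Their own differences between the groups were 0.85 to 1.02. For Myc the nearest were Lypd6b, Adora2b, Rasgef1b, Loxl4 and Tspan15, at 0.0949, 0.158, 0.163, 0.165 and 0.166 (median 0.632), with differences of -1.11 to -0.81. Lypd6b read 11.52, 12.10, 12.21 and 11.76 in controls and 10.66, 10.46, 10.89 and 11.21 in exposed thyroids, so that its lowest control and highest exposed arrays were those of Myc, control 1 and S590. With 8 arrays in 2 groups, this likeness describes the profile and carries no test.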

How the data were processed

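RNA of 8 mouse thyroids was hybridized to one-colour Agilent arrays on 1 slide read in 1 scan. The exposed samples held its first positions, and slide position cannot be told apart from group. The authors deposited the scanner intensity of each spot (Feature Extraction 10.7.3.1) and a table of log2 values, quantile-normalized in limma per their methods. The deposited log2 values lay within 0.038 of the quantile-normalized median signal, without background subtraction.

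Here the log2 of the background-subtracted signal of 59305 non-control spots was quantile-normalized and averaged over the spots of each of 55681 probes (R 4.3.3, limma 3.58.1). Exposed and control arrays (4 each) were compared by lmFit and eBayes, two-sided, with Benjamini-Hochberg adjustment over all probes and a threshold of 0.05. A gene was read by its RefSeq probe of highest mean signal, or any probe where it had none. RefSeq accessions of 27220 of 27752 probes were found in the GRCm38.p6 gene table, used for names only. Positions are those of the array design in mm9.

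The members and the gene lists, written from general knowledge, were chosen with earlier results of these data known. Named were the called genes of each list or, with none called, the 3 of largest difference among those whose mean log2 signal reached 7, the nearest measured neighbors and the 5 nearest profiles. Others were named where the text says that the value was seen first. Alternatives were scaling to the 75th percentile, normexp (offset 50), the deposited values, array weights, a variance trend and Student's t-test. The study names that t-test for dual comparisons in general, and a B-test for its arrays. Further alternatives left out outlier spots, dim probes or each array in turn. Leaving out controls 1 and 2 together was added after seeing the data. The code was tested on simulated data with 4 and 4 arrays and 200 changed probes, all of mean log2 signal at least 7. There 42% of log2 differences of 1 and 73% of those of 2 were called. A gene that was not called may therefore still differ. The number of arrays limits the precision.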

Additional observations from a re-analysis of the deposited data

Results flagged for a closer look

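Within each group of 4 arrays, the highest or lowest array was compared with the rest by Dixon's criterion, which marks about 1 in 20 groups by chance. Of 142 groups tested 10 were marked, where chance gives about 7.1. Among reverse-strand lincRNA probes of the locus, 5 had a control array marked. A_30_P01020018 read 7.51 in control 1 against 6.10 to 6.18, A_30_P01019658 read 8.79 in control 1 against 8.41 to 8.45, and A_30_P01017939 read 4.91 in control 1 against 5.87 to 6.00. A_30_P01023290 read 5.56 in control 2 against 5.47 to 5.49, and A_30_P01033387 read 7.13 in control 3 against 2.96 to 3.29. Among forward-strand probes, A_30_P01025687 read 8.12 in control 3 against 5.42 to 5.73, and A_30_P01027502 read 8.21 in S539 against 8.58 to 8.64. At A_30_P01025687 and A_30_P01020018 the single high control was all that made the groups overlap. Outside the locus, S588 stood above the other exposed thyroids in Birc5 (8.71 against 7.41 to 7.57) and Ccna2 (7.46 against 6.83 to 6.94), and S539 did so in Tcf7 (7.91 against 6.54 to 6.74).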

How the results depend on the processing

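No paired analysis was possible because controls are numbered 1 to 4 and exposed thyroids S539 to S590, with no shared numbers. Myc lay between -1.04 and -0.86 and the Pvt1 probe A_55_P2155654 between 0.92 and 1.00 under the 75th percentile, normexp, the deposited values and the outlier-spot filter, and leaving out 1 array gave -1.22 to -0.91 and 0.86 to 1.02. The groups stayed apart for both in each of these. Locus lincRNA probes higher without overlap numbered 18 to 24 (20 to 24 leaving out 1 array, 25 without controls 1 and 2). Of the 43 probes, 17 moved beyond the replicate SD under normexp, 15 with the deposited values and 10 under the 75th percentile. Called probes numbered 435, of which 75.2% were higher. They numbered 577 under the 75th percentile (84.7% higher), 856 under normexp, 955 with the deposited values and 733 without dim probes. Student's t-test gave 289, a variance trend 744 and array weights 959 (60.9% higher). Leaving out 1 array gave 100 (without S590) to 485 (without control 1, 65.2% higher), with 86.6% higher without S588, and leaving out controls 1 and 2 gave 83. Network factors held 1 called gene, Mycl1, under the 75th percentile. Myc-repressed genes held 2, with Gadd45g beside Cdkn1a, under normexp, the deposited values, no dim probes, the variance trend and array weights, and 0 without controls 1 and 2. Named noncoding RNAs held 2, with Gas5 beside Snhg12, under the same 5 settings and the t-test, 0 to 1 leaving out 1 array, and 0 without controls 1 and 2. LOC432958 turned to 0.21 under the 75th percentile, and leaving out 1 array gave -0.30 to 0.06, positive without control 4 (0.03) or S589 (0.0595). The causes were not tested.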
